A study of Vitis vinifera with 24 samples.

Results

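Stilbene synthases make resveratrol, the parent compound of the grapevine stilbenes, and the genes of this family were followed in Sauvignon blanc berries under soil nitrogen (N). The members were all gene IDs in the tables from *VIT_16s0100g00750* to *VIT_16s0100g01200* and from *VIT_10s0042g00840* to *VIT_10s0042g00930*, the ID ranges of the stilbene synthase clusters of chromosomes 16 and 10. They were 46 of the 26740 genes listed, 37 on chromosome 16 and 9 on chromosome 10. The table of 2013 listed 45 of them and that of 2014 all 46, since *VIT_16s0100g01080* had reads in 2014 only. The IDs are those of the V1 annotation of the 12X grapevine assembly. Neither the tables nor the gene reference used here describe single members, so each is called by its ID and no member is given an individual enzyme name.

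Stilbene synthase belongs to the plant type III polyketide synthases. It joins p-coumaroyl-CoA, a product of the phenylpropanoid pathway that starts with phenylalanine ammonia-lyase (PAL), to malonyl-CoA units, and so uses the same substrates as chalcone synthase, which opens the flavonoid pathway. In grapevine the family has grown by tandem duplication, and stilbenes are known as phytoalexins, which accumulate in leaves and berries after fungal attack, ultraviolet light or wounding, and also as berries ripen.

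The berries came from a commercial vineyard near Bordeaux in 2013 and 2014, from plots chosen for a low N status in earlier seasons. Control vines without added N were compared with soil N100 vines, which received 100 units of N per hectare in split doses at bud break and at flowering. Whole berries, with skin, pulp and seeds together, were sampled 28 and 35 days after mid-veraison, called (v + 28) and (v + 35), with 3 libraries for each of the 8 groups. The clone and the rootstock also changed with the year, so that season and plant material cannot be told apart, and the tables of the years were normalized separately. In whole berries a lower level in every cell and fewer cells with the transcript cannot be told apart either.

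The libraries held 29.6 to 80 M reads in listed genes (median 50.5 M), and of these 1038 to 37568 reads per library (median 3032) fell on the members. In 2013 at (v + 28) all 3 soil N100 libraries were deeper (44.2 to 53.9 M) than all 3 control libraries (30.3 to 35.6 M), and the part of this in the differences between them was not tested. Markers of berry cell types were not checked. Levels are RPKM, reads scaled to gene length and library size. The deposited counting kept only reads that aligned to a single place and did not use strand. Reads from stretches that members share are therefore counted for none of them, so that the levels of single members and of the family can be too low, and by a different amount for each member.

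The family as a whole was lowly to moderately expressed. Summed over the members, the mean over the 12 libraries was 45.3 RPKM in 2013 and 82.5 RPKM in 2014, and 2481 and 1306 single genes had a higher mean than this sum. Without control replicate 1 of (v + 35) the mean of 2014 was 50.7 RPKM, with 2191 genes above it. In 2013 the sum ranged from 20.9 to 78.7 RPKM between libraries, a span of 3.76-fold, and in 2014 from 20 to 432 RPKM, a span of 21.6-fold, or 5.86-fold without its highest library. No p is given for the sum, since the members were chosen with results of these data known.

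In 2013 at (v + 28) the sum was 20.9, 34.3 and 27.8 RPKM in the control and 78.7, 23.6 and 34.5 RPKM in soil N100 (replicates 1, 2 and 3, in this order throughout). At (v + 35) it was 49.9, 72 and 38.3 RPKM in the control and 38, 69.7 and 56.2 RPKM in soil N100. Only soil N100 replicate 1 of the 6 libraries of (v + 28) reached the levels of (v + 35), and the libraries of the treatments overlapped at both stages. The group means were 27.7 ± 6.71 and 45.6 ± 29.2 RPKM at (v + 28), and 53.4 ± 17.1 and 54.6 ± 15.9 RPKM at (v + 35), for control and soil N100 (SD, n = 3).

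In 2014 at (v + 28) the sum was 35.3, 20 and 67.6 RPKM in the control and 110, 26.2 and 117 RPKM in soil N100. At (v + 35) it was 432, 35.3 and 25.2 RPKM in the control and 39.2, 33.7 and 48.5 RPKM in soil N100. A single control library, replicate 1 of (v + 35), stood far above all others, and at (v + 28) replicates 1 and 3 of soil N100 were high while replicate 2 was not. The group means were 41 ± 24.3 and 84.3 ± 50.5 RPKM at (v + 28), and 164 ± 232 and 40.5 ± 7.49 RPKM at (v + 35). The SD of the control at (v + 35) was 141% of its mean, against 18.5% in soil N100 of the same stage. The sums of the clusters by library are plotted on a log axis.

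**Figure D1:**
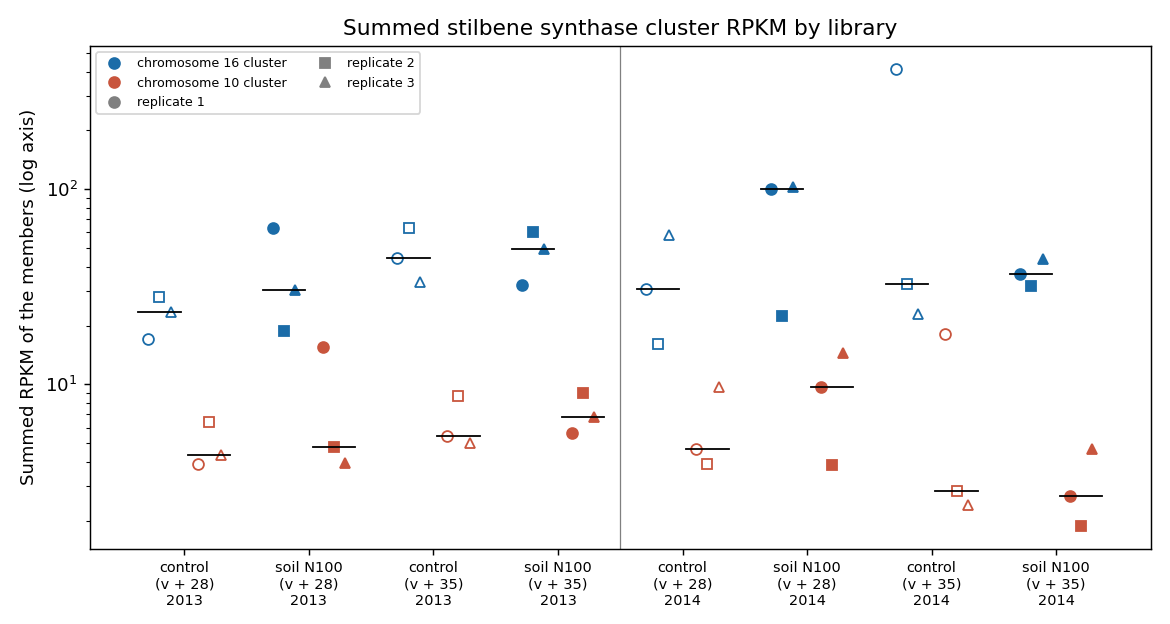
Summed RPKM of the chromosome 16 members (blue) and the chromosome 10 members (red) in each of the 24 libraries (log axis), open symbols control, filled symbols soil N100, symbol shape the replicate and black lines the median of 3. Control replicate 1 of (v + 35) in 2014 lies at 414 RPKM for chromosome 16 and 18 RPKM for chromosome 10, above all other libraries in both clusters.

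A member was tested where its mean over the 12 libraries of a year reached 0.5 RPKM. This held for 27 members in 2013 (23 on chromosome 16 and 4 on chromosome 10) and for these 27 and 6 more of chromosome 16 in 2014. The other 13 were below this level in both years. Of these, *VIT_16s0100g01080* had a single read in 1 of 24 libraries, *VIT_16s0100g01060* had none in 18 libraries and at most 8 reads, and *VIT_16s0100g00990* had none in 10 libraries and at most 3 reads. *VIT_10s0042g00900* and *VIT_10s0042g00910* had at most 9 and 8 reads. *VIT_16s0100g01110* had up to 1512 reads but a mean of only 0.118 RPKM in 2013 and 0.271 RPKM in 2014, because its gene length, as implied by the values, is 15767 nt. The implied length was 1100 to 1600 nt for 36 of the 46 members (median of all 1346 nt). It was shorter for 8 members, and for a gene with very few reads it is only the smallest length that fits. In all, 40 members had reads in every library.

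The 6 members with the highest mean over the 24 libraries all belonged to chromosome 16 and made up 38.5% of the sum in 2013 and 42.8% in 2014. Without control replicate 1 of (v + 35) in 2014 they were still the first 6. *VIT_16s0100g01030* had the highest mean of the family, 6.06 RPKM. In 2013 it was at 2.05, 3.79 and 3.19 (control) and 6.17, 2.68 and 3.32 RPKM (soil N100) at (v + 28), and 4.31, 7.58 and 4.75 (control) and 3.07, 9.08 and 5.67 RPKM (soil N100) at (v + 35). In 2014 it was at 4, 1.86 and 7.87 (control) and 9.96, 2.15 and 10.7 RPKM (soil N100) at (v + 28), and 34.8, 3.69 and 2.25 (control) and 3.6, 3.34 and 5.48 RPKM (soil N100) at (v + 35). This member held the highest level of the family in 14 of the 24 libraries. *VIT_16s0100g00770*, with a mean of 4.63 RPKM, was at 0.981, 1.29 and 1.54 (control) and 4.64, 0.803 and 2.51 RPKM (soil N100) at (v + 28), and 3.6, 3.75 and 1.74 (control) and 1.82, 4.31 and 3.54 RPKM (soil N100) at (v + 35) in 2013. Its levels of 2014 were 2.12, 1.09 and 4.11 (control) and 9.4, 1.49 and 8.13 RPKM (soil N100) at (v + 28), and 40.1, 2.5 and 1.6 (control) and 3.74, 3.04 and 3.32 RPKM (soil N100) at (v + 35). Its 40.1 RPKM in control replicate 1 of (v + 35) stood against 9.4 RPKM in the next highest library of 2014, soil N100 replicate 1 of (v + 28).

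*VIT_16s0100g01100* (mean 4.52 RPKM) differed from the other leading members. It was at 0.527, 0.724 and 1.19 (control) and 1.72, 0.834 and 3.97 RPKM (soil N100) at (v + 28), and 2.15, 4.53 and 1.82 (control) and 1.52, 2.94 and 3.51 RPKM (soil N100) at (v + 35) in 2013, where soil N100 replicate 3 and not replicate 1 was the higher library of (v + 28). In 2014 it was at 3.01, 1.68 and 3.95 (control) and 6.15, 2.89 and 8.76 RPKM (soil N100) at (v + 28), and 28.7, 5.36 and 3.32 (control) and 7.83, 5.18 and 6.15 RPKM (soil N100) at (v + 35). It held the first place in the family in all 5 other libraries of (v + 35) in 2014, in which no other member was above 5.48 RPKM. *VIT_16s0100g01200* (mean 4.15 RPKM, and 2.37 RPKM in last place of the 6 without control replicate 1 of (v + 35) in 2014) was at 0.881, 2.41 and 1.19 (control) and 3.28, 1.1 and 2.35 RPKM (soil N100) at (v + 28), and 2.73, 3.29 and 1.87 (control) and 2.03, 3.4 and 2.83 RPKM (soil N100) at (v + 35) in 2013. Its levels of 2014 were 1.73, 0.848 and 3.09 (control) and 4.98, 1.11 and 5.06 RPKM (soil N100) at (v + 28), and 45.1, 1.86 and 1.37 (control) and 1.89, 2.63 and 2.52 RPKM (soil N100) at (v + 35), and the 45.1 RPKM in control replicate 1 of (v + 35) was the highest level of any member in any library.

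*VIT_16s0100g00750*, the first ID of the chromosome 16 cluster (mean 4.03 RPKM), varied less in 2013, with 1.61, 2.53 and 2.43 (control) and 3.15, 2.3 and 3.03 RPKM (soil N100) at (v + 28), and 3.72, 5.1 and 2.65 (control) and 3.21, 5.19 and 3.8 RPKM (soil N100) at (v + 35). In 2014 its levels were 2.17, 1.5 and 3.29 (control) and 5.72, 1.99 and 6.13 RPKM (soil N100) at (v + 28), and 25.1, 2.1 and 2.3 (control) and 2.64, 2.01 and 2.97 RPKM (soil N100) at (v + 35). *VIT_16s0100g00860* (mean 3 RPKM) led the family in the highest library of 2013, soil N100 replicate 1 of (v + 28). It was at 0.99, 2.46 and 1.22 (control) and 8.01, 1.12 and 0.923 RPKM (soil N100) at (v + 28), and 2.75, 4.02 and 2.44 (control) and 1.64, 3.22 and 2.72 RPKM (soil N100) at (v + 35) in that year. In 2014 it was at 1.54, 0.823 and 4.38 (control) and 7.65, 0.926 and 7.34 RPKM (soil N100) at (v + 28), and 11.9, 1.24 and 1 (control) and 0.868, 1.04 and 1.85 RPKM (soil N100) at (v + 35), so that soil N100 replicates 1 and 3 of (v + 28) came nearer to control replicate 1 of (v + 35) than in the other 5 of these members.

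The levels of all 46 members are drawn by library. Most members were high or low together in a library, and replicates of a group could differ widely.

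**Figure D2:**
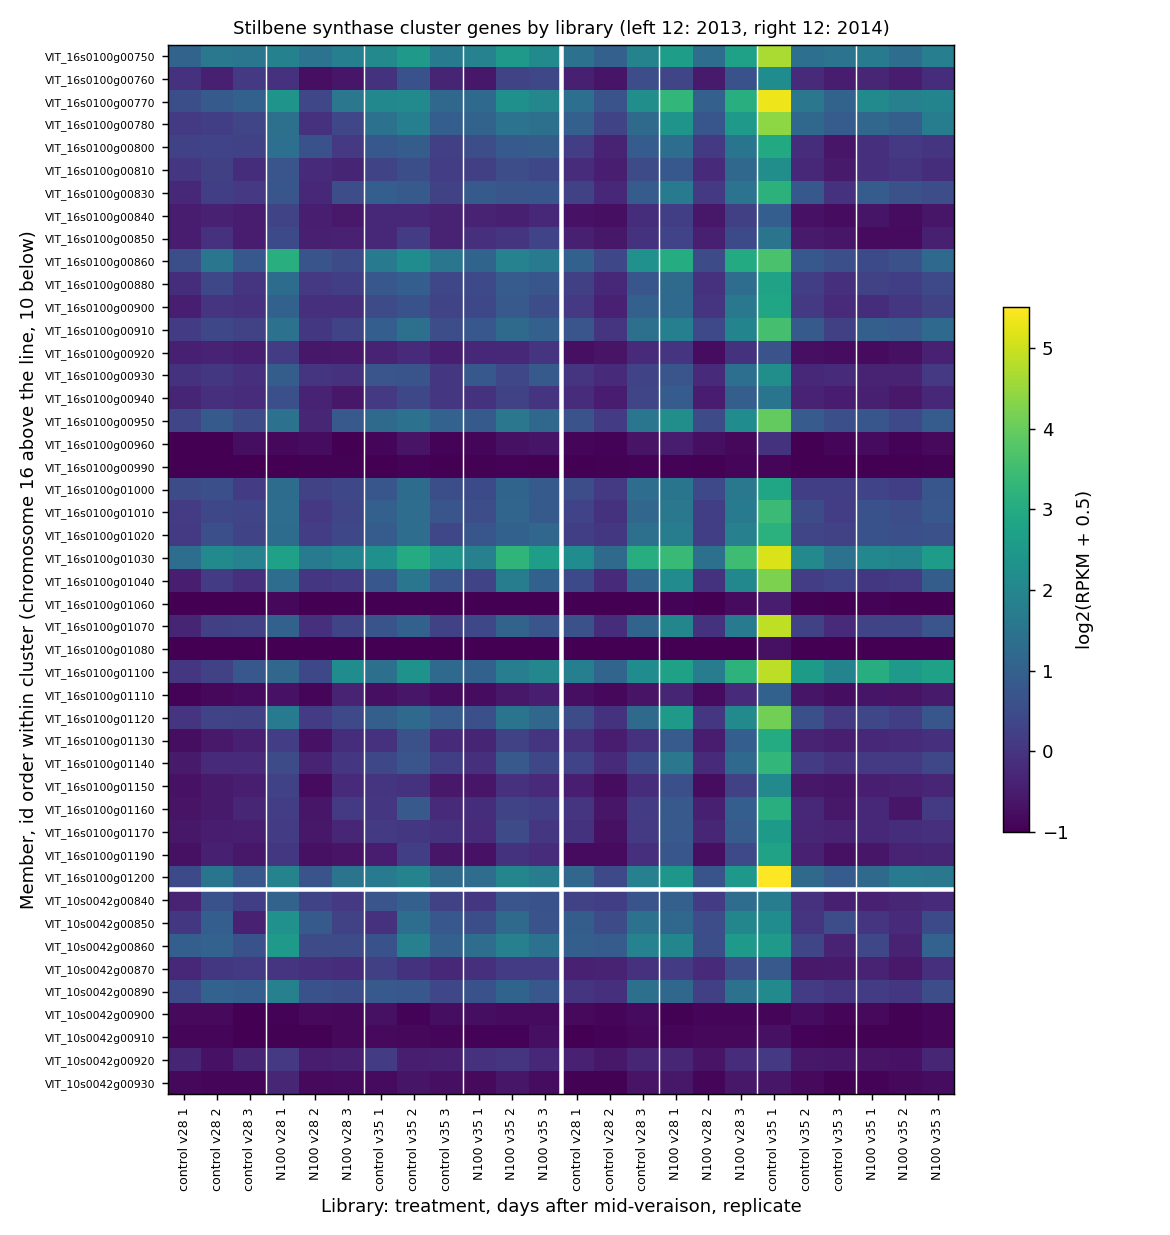
log2(RPKM + 0.5) of the 46 members (rows in ID order, chromosome 16 above the white line and chromosome 10 below) in the 24 libraries (columns, 2013 left and 2014 right, thin lines between groups of 3). Control v35 replicate 1 of 2014 is the brightest column, with 43 of the 46 members at their highest of that year, and N100 v28 replicate 1 is the brightest column of 2013, with 23 members at their highest.

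The members varied together across the libraries. Over the 12 libraries of 2013 the median Pearson r between pairs of the 27 tested members was 0.816 (lowest 0.0371, highest 0.975), and over those of 2014 the median between pairs of the 33 tested members was 0.958 (lowest 0.5, highest 0.997). Without the library with the highest sum of each year the medians were 0.804 and 0.915. Each member's own r with the log2 sum was between 0.596 and 0.978 in 2013 and between 0.806 and 0.997 in 2014. The lowest were those of *VIT_10s0042g00890* in 2013 and *VIT_10s0042g00850* in 2014, both of chromosome 10. These correlations are descriptions over libraries that share treatment and stage in groups of 3, and the sum contains the member.

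Control replicate 1 of (v + 35) in 2014 lifted 3 members over the level for a test by itself, *VIT_16s0100g00760*, *VIT_16s0100g01150* and *VIT_16s0100g01190*, which averaged 0.443, 0.327 and 0.345 RPKM in the other 11 libraries. They are left out of the counts and medians of this library, which cover the 30 members that reached 0.5 RPKM without it. The library was picked for its family sum, the highest of its year. Members are therefore high in it by that choice, and they varied together, so the shares below are no test. It was the highest of the 12 libraries of its year for 30 of these 30 members, against 13.1% of the 17149 genes that met the same condition. For 23 of the 30 it was at least 2 times the next highest library (with 0.5 RPKM added to both), against 1.07% of those genes. Against the mean of replicates 2 and 3 of its group, the members had a median ratio of 12.3 (5.51 to 55.7), while the median over those genes was 0.988. It held 53.8 M reads in listed genes, 85.9% of its library size (83.9 to 86.7% over the 24 libraries). Over all genes tested its correlation with replicates 2 and 3 was 0.9699 and 0.9804, and the former was the lowest of the 24 replicate pairs of the series. RNA quality was not measured here, and its part in this result was not tested.

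The lead of this library differed along the chromosome 16 cluster in ID order. *VIT_16s0100g01070* was at 29.3 RPKM in it and at 0.697 and 0.355 RPKM in replicates 2 and 3, a ratio of 55.7 to their mean, the largest of these members. *VIT_16s0100g01160* followed with 8.18 against 0.322 and 0.165 RPKM. *VIT_16s0100g01100* was at 28.7 against 5.36 and 3.32 RPKM, a ratio of 6.6, the smallest on chromosome 16. With a division and a bound of 18 both chosen after these values had been seen, 9 members from *VIT_16s0100g01040* to the end of the cluster had a median ratio of 26.8 (6.6 to 55.7). Of the 9, 8 were above 18, the lowest of them at 18.1 and 18.4, so that the count depends on the bound. The 17 members up to *VIT_16s0100g01030* had a median of 11.7 (9.63 to 26.6), and 2 of the 17 were above 18. The 4 members of chromosome 10 had a median of 7.53 (5.51 to 9.81). All tested members are plotted by ID order with those of the highest library of 2013.

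**Figure D3:**
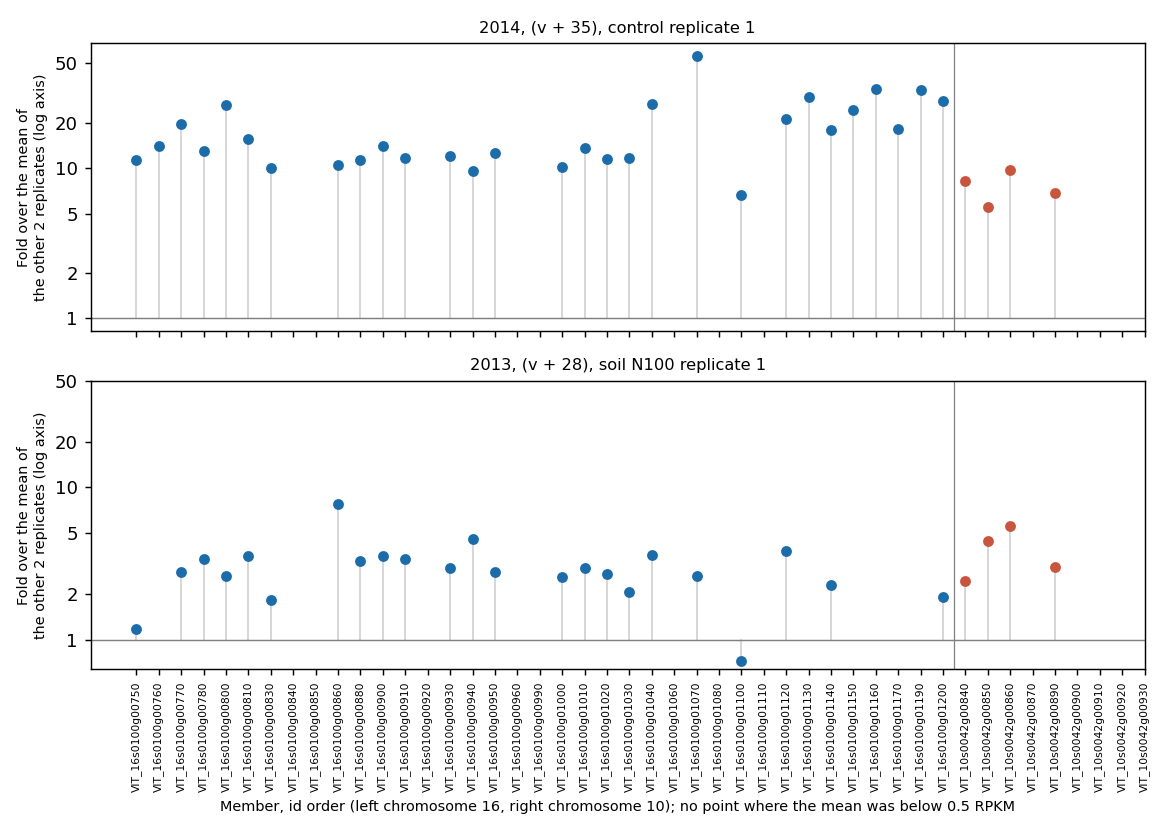
RPKM of each tested member in 1 library divided by the mean of the other 2 replicates of its group (log axis), members in ID order, chromosome 16 in blue and chromosome 10 in red. Upper panel, control replicate 1 of (v + 35) in 2014, all 33 members above 5 times, of which 3 were tested only through this library. Lower panel, soil N100 replicate 1 of (v + 28) in 2013, 26 of 27 members above 1, *VIT_16s0100g01100* at 0.718 and *VIT_16s0100g00860* highest at 7.84.

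Soil N100 replicate 1 of (v + 28) in 2013 lifted 1 member, *VIT_16s0100g00940*, over the level for a test (0.472 RPKM in the mean of the other 11 libraries). Of the 26 that reached this level without it, 15 were highest in this library, against 8.02% of the genes that met the same condition. This library too was picked for the highest family sum of its year, so that this count is no test. Against the mean of replicates 2 and 3 of its group these members had a median ratio of 2.88 (0.718 to 7.84), with 2.78 on chromosome 16 and 3.72 on chromosome 10. The order of the members was not that of the high library of 2014. *VIT_16s0100g00860* led with 8.01 against 1.12 and 0.923 RPKM, followed by *VIT_10s0042g00860* with 5.14 against 0.908 and 0.921 RPKM. *VIT_16s0100g00750* was at 3.15 against 2.3 and 3.03 RPKM, a ratio of 1.18.

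The clusters did not keep a fixed ratio. In 2013 the summed RPKM of chromosome 16 was 4.37, 4.38 and 5.44 times that of chromosome 10 in the control at (v + 28) and 8.16, 7.26 and 6.66 times at (v + 35). In soil N100 of that year the ratio was 4.03, 3.93 and 7.74 at (v + 28) and 5.77, 6.69 and 7.31 at (v + 35). The control libraries of the stages did not overlap, and the soil N100 libraries did. In 2014 the ratio was 6.6, 4.15 and 5.97 in the control at (v + 28) and 23, 11.5 and 9.45 at (v + 35). In soil N100 of 2014 it was 10.3, 5.76 and 7.09 at (v + 28) and 13.8, 16.9 and 9.43 at (v + 35). Thus in the control of both years every library of (v + 35) had a higher ratio than every library of (v + 28), also without the library of 432 RPKM. Chromosome 10 supplied 14.6% of the sum in 2013 and 7.95% in 2014, or 10.9% without that library. Much of this came from short gene models with few reads, *VIT_10s0042g00850* (222 nt) and *VIT_10s0042g00860* (188 nt). They held 2.99% and 4.39% of the sum in 2013 and 1.81% and 2.49% in 2014. Their median reads per library were 13 and 13 in 2013 and 14 and 16 in 2014, and their part in the ratio was not tested.

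**Figure D4:**
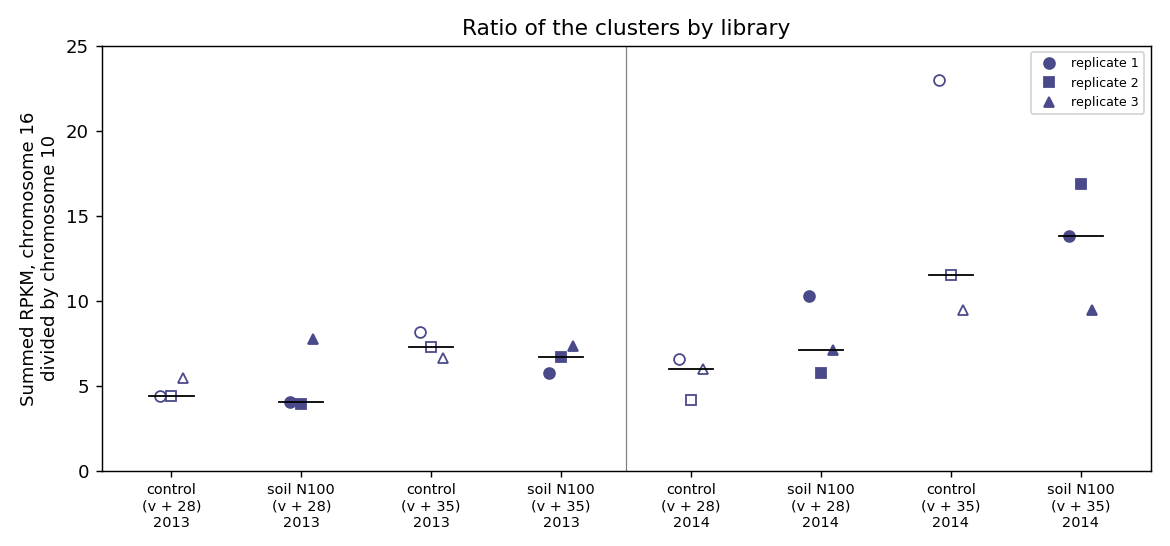
Summed RPKM of the chromosome 16 members divided by that of the chromosome 10 members in each of the 24 libraries, open symbols control, filled symbols soil N100, shape the replicate and black lines the median of 3. In the controls the 3 libraries of (v + 35) lie above the 3 of (v + 28) in 2013 (6.66 to 8.16 against 4.37 to 5.44) and in 2014 (9.45 to 23 against 4.15 to 6.6).

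Soil N100 was compared with the control to ask whether the family responded to vine N status. No member was up- or down-regulated at either stage of either year. Calls needed a p of 0.05 or less after Benjamini-Hochberg adjustment over all genes tested and an LFC (log2 fold change, on log2(RPKM + 0.5)) of 0.6 or more in either direction, by limma on the 12 libraries of a year. In 2013, 0 of 27 members were called at (v + 28) and 0 of 27 at (v + 35), where 0.0694% and 0.00578% of all genes were called. In 2014, 0 of 33 were called at both stages, where 0% and 0.00582% of all genes were. For the mean of both stages 0 members were called in either year (2.01% and 0.0408% of all genes), and for the difference of the effects between the stages 0 members and 0% of all genes in both years. With an unadjusted p of at most 0.05 and the same LFC, 0 members passed in any of these contrasts. Of all 17298 genes in 2013, 311 passed up and 242 down at (v + 28), and 221 and 251 at (v + 35). Of all 17171 in 2014, 38 and 23 passed at (v + 28), and 34 and 63 at (v + 35). For the mean of both stages 247 and 158 passed in 2013, and 34 and 36 in 2014. For the difference between the stages 55 and 82 passed in 2013, and 15 and 13 in 2014. With limma-voom, run on whole reads recovered from the RPKM, the count of members was 0 too. The libraries spread widely, and the median SE of a member's LFC was 0.298 in 2013 and 0.726 in 2014, against 0.127 and 0.121 over all genes tested. At nominally the same thresholds the study's own test on counts called far more genes for N at each stage of both years than limma did here. The study's tables of genes that responded to N describe 648 genes, and 0 of the members are among them. With the wide spread between libraries, a count of 0 members does not show that the family did not respond.

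In 2013 at (v + 28) the LFC was above 0 for 27 of 27 members with a median of 0.35, while the median of all genes tested was -0.1. *VIT_16s0100g00940* was tested only through soil N100 replicate 1 of this stage. Without this member the LFC was above 0 for 26 of 26, with a median of 0.35. The LFC was largest for *VIT_10s0042g00850* (0.94, SE 0.51, adjusted p = 0.284 from limma) and smallest for *VIT_16s0100g00810* (0.02, SE 0.24). *VIT_10s0042g00850*, a gene model of only 222 nt, was at 0.547, 1.42 and 0.255 (control) and 4.43, 1.31 and 0.693 RPKM (soil N100) at (v + 28), and 0.45, 2.06 and 1.19 (control) and 0.971, 1.86 and 1.09 RPKM (soil N100) at (v + 35) in 2013 and rested on 2 to 63 reads per library. *VIT_16s0100g00810* was at 0.518, 0.679 and 0.396 (control) and 1.15, 0.352 and 0.297 RPKM (soil N100) at (v + 28), and 0.771, 0.967 and 0.633 (control) and 0.674, 0.942 and 0.83 RPKM (soil N100) at (v + 35). In both members soil N100 replicate 1 was the highest library of the stage. Without this library the median LFC of the members was 0.04, with 15 above 0 and 12 below, and the log2 ratio of the mean sums went from 0.72 (1.65-fold) to 0.07. Without soil N100 replicate 2 the median was 0.614.

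At (v + 35) in 2013 the median LFC of the members was 0.04, with 17 above 0 and 10 below, against -0.1 over all genes. It ranged from -0.14 without control replicate 3 to 0.21 without control replicate 2. *VIT_10s0042g00860*, a gene model of 188 nt, had the largest (0.39, SE 0.46), and *VIT_16s0100g00860* the smallest (-0.25, SE 0.55, adjusted p = 0.816 from limma). *VIT_10s0042g00860* was at 1.42, 1.55 and 1.05 (control) and 5.14, 0.908 and 0.921 RPKM (soil N100) at (v + 28), and 1.06, 3.04 and 1.48 (control) and 2.01, 3.08 and 2.21 RPKM (soil N100) at (v + 35) in 2013. The mean sums differed by 1.02-fold. For the mean of both stages *VIT_10s0042g00850* had the largest LFC (0.54, SE 0.36) and *VIT_16s0100g00940* the smallest (-0.02, SE 0.18). *VIT_16s0100g00940* was at 0.301, 0.443 and 0.392 (control) and 1.01, 0.274 and 0.168 RPKM (soil N100) at (v + 28), and 0.582, 0.834 and 0.521 (control) and 0.472, 0.713 and 0.494 RPKM (soil N100) at (v + 35) in that year. Between the stages the effect differed most for *VIT_16s0100g01100* (-0.93, SE 0.6, (v + 35) minus (v + 28)) and in the other direction for *VIT_10s0042g00860* (0.09, SE 0.65).

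In 2014 at (v + 28) the LFC was above 0 for 33 of 33 members, with a median of 0.69 against -0.05 over all genes. The median was 0.425 without soil N100 replicate 3, 0.469 without soil N100 replicate 1 and 0.431 without control replicate 2 of this stage, and 1.18 without soil N100 replicate 2. *VIT_16s0100g00770* had the largest (1.05, SE 0.97, adjusted p = 1 from limma), and *VIT_10s0042g00850* the smallest (0.29, SE 0.52). The latter was at 1.4, 0.902 and 2.25 (control) and 1.8, 0.962 and 3.47 RPKM (soil N100) at (v + 28), and 3.95, 0.478 and 0.957 (control) and 0.495, 0.375 and 0.867 RPKM (soil N100) at (v + 35) in 2014. At (v + 35) the LFC was below 0 for 33 of 33 members, with a median of -0.8 against -0.01 over all genes. *VIT_16s0100g01040* had the lowest (-1.2, SE 0.95, adjusted p = 0.989 from limma) and *VIT_16s0100g01100* the one nearest to 0 (-0.35, SE 0.63).

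*VIT_16s0100g01040* was at 0.228, 0.614 and 0.43 (control) and 2.01, 0.519 and 0.598 RPKM (soil N100) at (v + 28), and 1.21, 2.42 and 1.15 (control) and 0.76, 2.83 and 1.53 RPKM (soil N100) at (v + 35) in 2013. Its levels of 2014 were 0.883, 0.372 and 1.66 (control) and 3.93, 0.463 and 3.58 RPKM (soil N100) at (v + 28), and 18.2, 0.629 and 0.73 (control) and 0.546, 0.578 and 1.39 RPKM (soil N100) at (v + 35), so that control replicate 1 was above every soil N100 library of (v + 35) and control replicates 2 and 3 lay among them. The sign at (v + 35) rested on this library. The 3 members tested only through it are part of the counts of 2014 as well, and without them the median was -0.78 at (v + 35). Without the library the median LFC of the members was 0.21, with 30 above 0 and 3 below, and the log2 ratio of the mean sums went from -2.02 to 0.42. Without control replicate 2 or 3 of this stage the median was -1.23 and -1.31. The difference of the effects between the stages, with a median of -1.43, went to -0.43. For the mean of both stages the median went from -0.07 to 0.43, and it was also above 0 without control replicate 3 (0.07) or soil N100 replicate 2 (0.18) of (v + 28). It was -0.33 without control replicate 3 of (v + 35), the lowest without any 1 library. With all 12 libraries *VIT_16s0100g01100* had the highest LFC for this mean (0.26, SE 0.45) and *VIT_10s0042g00850* the lowest (-0.26, SE 0.36). *VIT_16s0100g01120* had the most negative difference between the stages (-2.13, SE 1.31) and *VIT_10s0042g00860* the least (-0.93, SE 1).

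*VIT_16s0100g01120* was at 0.931, 0.46 and 1.88 (control) and 5.1, 0.513 and 3.79 RPKM (soil N100) at (v + 28), and 16.9, 0.993 and 0.583 (control) and 0.804, 0.646 and 1.16 RPKM (soil N100) at (v + 35) in 2014. In 2013 it was at 0.479, 0.764 and 0.725 (control) and 2.74, 0.587 and 0.844 RPKM (soil N100) at (v + 28), and 1.46, 1.82 and 1.33 (control) and 1.01, 2.32 and 1.73 RPKM (soil N100) at (v + 35). Its spread between libraries was thus far wider in 2014. The levels of *VIT_10s0042g00860* in 2014 were 1.46, 1.37 and 3.17 (control) and 3.48, 0.973 and 5.2 RPKM (soil N100) at (v + 28), and 5.26, 0.79 and 0.282 (control) and 0.804, 0.266 and 1.58 RPKM (soil N100) at (v + 35). Those of *VIT_16s0100g00810* were 0.392, 0.232 and 0.902 (control) and 1.22, 0.359 and 1.78 RPKM (soil N100) at (v + 28), and 4.19, 0.343 and 0.195 (control) and 0.425, 0.478 and 0.399 RPKM (soil N100) at (v + 35). Those of *VIT_16s0100g00940* were 0.389, 0.219 and 0.788 (control) and 1.36, 0.2 and 1.47 RPKM (soil N100) at (v + 28), and 2.37, 0.286 and 0.207 (control) and 0.24, 0.182 and 0.332 RPKM (soil N100) at (v + 35). In each of these 4 members control replicate 1 of (v + 35) was the highest library of 2014, by the smallest margin in *VIT_10s0042g00860* (5.26 against 5.2 RPKM in soil N100 replicate 3 of (v + 28)).

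The libraries of the treatments did not separate for any tested member at either stage. Of the tested members, 0 had all soil N100 libraries above or below all control libraries at (v + 28) or at (v + 35), in 2013 or in 2014. Over all genes tested the shares were 27.7% and 28.7% in 2013, and 8.84% and 7.03% in 2014.

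The comparison of (v + 35) with (v + 28) asks how the family moved in the last week before harvest. In control vines of 2013, 4 of 27 members were up-regulated and 0 down-regulated, while 3.93% of all genes tested were up-regulated. Over all genes 680 were up-regulated and 784 down-regulated, which turned to 854 and 493 after rescaling by median ratios, with 4 members up-regulated there too. The LFC was above 0 for 26 of 27 members with a median of 0.67, against -0.08 over all genes. The chromosome 16 members had a median of 0.68 (0.33 to 1.29) and the 4 of chromosome 10 a median of 0.38 (-0.15 to 0.5).

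The up-regulated members were *VIT_16s0100g01100* (LFC 1.29, SE 0.42, adjusted p = 0.0431), *VIT_16s0100g00780* (LFC 1.17, SE 0.32, adjusted p = 0.0192), *VIT_16s0100g01140* (LFC 0.77, SE 0.26, adjusted p = 0.0471) and *VIT_16s0100g00750* (LFC 0.67, SE 0.23, adjusted p = 0.0498), all from limma. *VIT_16s0100g00780* was at 0.576, 0.664 and 0.774 (control) and 2.14, 0.455 and 0.817 RPKM (soil N100) at (v + 28), and 2.19, 3 and 1.43 (control) and 1.59, 2.31 and 2.16 RPKM (soil N100) at (v + 35) in 2013. *VIT_16s0100g01140* was at 0.187, 0.374 and 0.357 (control) and 0.907, 0.275 and 0.525 RPKM (soil N100) at (v + 28), and 0.839, 1.14 and 0.658 (control) and 0.415, 1.25 and 0.838 RPKM (soil N100) at (v + 35). In these 4 members the 3 control libraries of (v + 35) lay above the 3 of (v + 28). This held for 14 of the 27 tested members, against 15.2% of all genes tested. *VIT_16s0100g01040* had an LFC of 1.15 and *VIT_16s0100g00770* of 0.95, and they did not pass (adjusted p = 0.052 and 0.13).

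The number of calls was not stable. It was 1 by limma-voom and 2 with a replicate block. It was 0 without control replicate 1 or 2 of (v + 28) or without control replicate 1 or 2 of (v + 35), 2 without control replicate 3 of (v + 28) and 3 without control replicate 3 of (v + 35). Since the spread is shared by all 12 libraries, it also moved with the soil N100 libraries, to 9 without replicate 1, 8 without replicate 2 and 3 without replicate 3 of (v + 28), and to 2 without replicate 3 of (v + 35). The log2 ratio of the mean sums was 0.95 (53.4 against 27.7 RPKM) and stayed between 0.67 and 1.14 without each library in turn.

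In soil N100 vines of 2013, 0 of 27 members were called, against 8.3% of all genes tested, and 1, *VIT_16s0100g00780* (LFC 0.74, SE 0.32), passed an unadjusted p of 0.05 with the same LFC. Of all 17298 genes, 745 passed up and 865 down in this way. limma-voom called 0 members. The LFC was above 0 for 24 of 27 members with a median of 0.33, against -0.08 over all genes. Without soil N100 replicate 1 of (v + 28) 7 members were up-regulated, against 554 of all 17298 genes, and the median LFC of the members was 0.63. Without replicate 2 of that group 0 were called and the median was 0.0554, with 17 above 0 and 10 below, without replicate 3 it was 0.217, and without replicate 2 of (v + 35) it was 0.17. The libraries of the stages did not overlap for 1 of 27 members with all of (v + 35) higher, *VIT_16s0100g00750*, against 11.9% of all genes.

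In 2014, 0 of 33 members were called in control vines (2.08% of all genes were called) and 0 of 33 in soil N100 vines (0.734% of all genes were called). At an unadjusted p of 0.05 and the same LFC, 1 member passed in the control, *VIT_16s0100g01100* (LFC 1.42, SE 0.63), and 2 in soil N100, *VIT_10s0042g00840* (LFC -1.13, SE 0.47) and *VIT_10s0042g00850* (LFC -1.16, SE 0.52). These were named after their values had been seen. Of all 17171 genes, 272 passed up and 526 down in this way in the control, and 165 and 353 in soil N100. limma-voom called 0 members in both. In the control the LFC was above 0 for 31 of 33 members with a median of 0.84, against -0.04 over all genes. For the 30 members that reached the level for a test without replicate 1 of (v + 35), it was above 0 for 28, with a median of 0.85. This sign too rested on replicate 1 of (v + 35). With that library left out, the median over the 33 members was -0.22 with 4 above 0 and 29 below, and the log2 ratio of the mean sums went from 2 to -0.44. Without replicate 3 of (v + 35) the median was 1.45. For no tested member did the control libraries of the stages separate in either direction, against 22.9% of all genes.

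In soil N100 the LFC from (v + 28) to (v + 35) in 2014 was below 0 for 32 of 33 members with a median of -0.67, against -0.0023 over all genes. Of the soil N100 libraries of (v + 28), the median was -0.43 without replicate 1, -0.44 without replicate 3 and -1.15 without replicate 2. The exception was *VIT_16s0100g01100* (LFC 0.2, SE 0.63), and the most negative was *VIT_16s0100g00860* (-1.4, SE 0.86). All soil N100 libraries of (v + 35) were below all of (v + 28) for 3 of 33 members, *VIT_10s0042g00840*, *VIT_10s0042g00850* and *VIT_16s0100g00800*, against 17.1% of all genes. For comparison with 2013, *VIT_16s0100g00780* was at 1.49, 0.761 and 1.88 (control) and 4.68, 1.16 and 5.18 RPKM (soil N100) at (v + 28), and 20.6, 1.78 and 1.35 (control) and 1.73, 1.45 and 2.87 RPKM (soil N100) at (v + 35) in 2014. *VIT_16s0100g01140* was at 0.735, 0.361 and 0.881 (control) and 2.48, 0.374 and 1.85 RPKM (soil N100) at (v + 28), and 9.49, 0.601 and 0.446 (control) and 0.577, 0.583 and 0.796 RPKM (soil N100) at (v + 35). In both of these members the 3 soil N100 libraries of (v + 35) lay between the lowest and the highest of (v + 28).

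**Figure D5:**
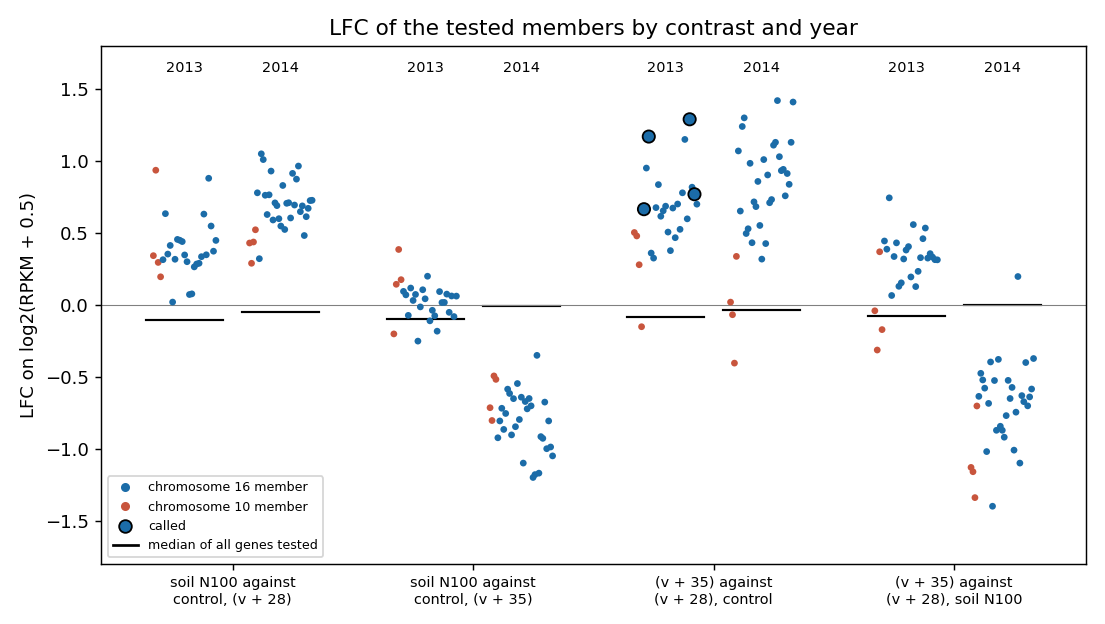
LFC of each tested member on log2(RPKM + 0.5) in 4 contrasts, 27 members in 2013 (left in each pair) and 33 in 2014 (right), chromosome 16 in blue and chromosome 10 in red, ringed where called, with a black line at the median of all genes tested. The members of 2014 lie above 0 for soil N100 against control at (v + 28), median 0.69, and below 0 at (v + 35), median -0.8, a sign that turned without control replicate 1.

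The effects of the years were compared through their difference, gene by gene, over the 27 members tested in both. For soil N100 against control 0 members differed between the years at (v + 28) or at (v + 35), with median differences (2014 minus 2013) of 0.34 and -0.79 and 0% of all genes passing in either. For the change from (v + 28) to (v + 35), 0 members differed in control vines (median 0.14, lowest adjusted p = 0.595 from limma effects) and 0 in soil N100 vines (median -1.03, lowest adjusted p = 0.203), where 10.8% and 7.97% of all 16899 genes passed. The median SE of these differences was 0.777. With an unadjusted p of 0.05, 0 members passed in each of these comparisons. Of all genes, 4.46% and 6.57% passed in this way for soil N100 against control at (v + 28) and (v + 35). For the change between the stages 28.9% passed in control vines and 26.6% in soil N100 vines.

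Other genes of phenylpropanoid metabolism were taken from those the study's tables describe, 14 in number, which the study chose on these samples, so that their counts are no independent evidence of a direction. Of the 14, 8 reached the level for a test in each year, and 0 were called for soil N100 against control at either stage. The PAL gene *VIT_08s0040g01710*, which opens the pathway, was at 2.93, 2.91 and 4.37 (control) and 5.77, 4.23 and 6.26 RPKM (soil N100) at (v + 28), and 10.6, 11.9 and 7.58 (control) and 10.1, 10.9 and 13.2 RPKM (soil N100) at (v + 35) in 2013. In 2014 it was at 4.91, 2.78 and 7.43 (control) and 11.1, 4.91 and 9.82 RPKM (soil N100) at (v + 28), and 68.5, 8.1 and 4.19 (control) and 10.4, 6.9 and 6.71 RPKM (soil N100) at (v + 35), with control replicate 1 of (v + 35), the library in which the family was highest, 5.97 times above the next (with 0.5 RPKM added to both). From (v + 28) to (v + 35) in 2013 it was up-regulated in the control (LFC 1.43, SE 0.2, adjusted p = 0.000718 from limma) and, with an LFC of 1.01 (SE 0.2, adjusted p = 0.00405), under soil N100. The other PAL gene among the 14, *VIT_13s0019g04460*, was up-regulated in both as well (LFC 0.71 and 1.64, SE 0.24), but in 2014 it was at 29.9, 22.2 and 51.7 (control) and 28.1, 28.2 and 26.8 RPKM (soil N100) at (v + 28), and 25.4, 28.7 and 36.5 (control) and 33.9, 19.3 and 30.6 RPKM (soil N100) at (v + 35), without a peak in that library. PAL genes outside the 14 were not looked at here.

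In 2013 the pathway genes up-regulated from (v + 28) to (v + 35) were 4 of 8 in the control and 5 of 8 in soil N100, against 680 and 643 of all 17298 genes tested. Besides both PAL genes of this list they were the flavonol synthase *VIT_18s0001g03430* (LFC 0.91 and 1.14, SE 0.29) and the laccase *VIT_18s0122g00370* (LFC 1 and 1.16, SE 0.22) in both treatments, and the O-methyltransferase *VIT_15s0048g02490* in soil N100 (LFC 1.27, SE 0.22). In 2014, 0 of 8 were called in either. For the mean of both stages in 2013 the laccase *VIT_18s0122g00420* was up-regulated by soil N100 (LFC 0.69, SE 0.14) and the flavonol synthase *VIT_18s0001g03470* down-regulated (LFC -0.77, SE 0.22). The cinnamyl alcohol dehydrogenase *VIT_04s0044g00210*, an enzyme of monolignol synthesis, was not called in any contrast. The laccase *VIT_18s0117g00590* was tested in 2014 only, and it reached the level for a test only through control replicate 1 of (v + 35). It was at 6.07 RPKM in that library and at 1.13 RPKM or less elsewhere. The O-methyltransferase *VIT_12s0028g02810*, the laccases *VIT_08s0007g01550*, *VIT_18s0075g00540* and *VIT_18s0075g00780*, and the BANYULS gene *VIT_15s0046g01170* were below the level for a test in both years.

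Of the 40 genes listed next to the clusters in ID order, 10 on each side, 22 were tested in each year. Their median r with the log2 family sum was -0.3 in 2013 (-0.59 to 0.43) and 0.01 in 2014 (-0.49 to 0.24), against -0.164 and -0.0351 over all 16872 genes outside the family. *VIT_16s0100g01210*, the ID next after the cluster, had r of 0.432 in 2013, which was 0.803 without the library with the highest sum, and 0.207 in 2014, which was -0.0622 without it. For soil N100 against control 0 of 22 were called at either stage in either year, and for the mean of both stages in 2013 *VIT_16s0100g00700* was down-regulated (LFC -0.88, SE 0.11, adjusted p = 0.00568 from limma). For (v + 35) against (v + 28) in 2013, *VIT_16s0100g00720* and *VIT_16s0100g01210* were up-regulated in both treatments, and *VIT_16s0100g01220* was down-regulated in both. In the control *VIT_10s0042g00960* was down-regulated in addition, and in soil N100 *VIT_10s0042g01020* was up-regulated and *VIT_16s0100g00730* and *VIT_16s0100g00740* were down-regulated. In 2014 *VIT_10s0042g00960* was down-regulated in both treatments, and in soil N100 *VIT_16s0100g00720* was up-regulated and *VIT_16s0100g00740* down-regulated.

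The family sum contains its members, so their r with it and that of other genes do not compare on equal terms. Over the 12 libraries of a year, r with the log2 sum was at least 0.8 in both years for 22 of the 27 members tested in both and for 27 of 16872 other genes (0.16%). The 10 with the highest value in the weaker year were *VIT_19s0014g00830* (r 0.948 in 2013 and 0.939 in 2014), *VIT_15s0048g02070* (0.939 and 0.929), *VIT_10s0003g04080* (0.925 and 0.924), *VIT_15s0046g02170* (0.893 and 0.913), *VIT_07s0129g01010* (0.893 and 0.954), *VIT_01s0011g06140* (0.89 and 0.942), *VIT_17s0000g01410* (0.891 and 0.887), *VIT_11s0065g00350* (0.885 and 0.97), *VIT_13s0019g04440* (0.882 and 0.941) and *VIT_09s0002g04720* (0.865 and 0.922). None of them is described in the sources used here. *VIT_11s0065g00350*, the gene with the highest r in 2014 among these 10, was at 5.93, 3.27 and 17.4 (control) and 17.6, 4.29 and 14.4 RPKM (soil N100) at (v + 28), and 63.5, 6.04 and 5.62 (control) and 6.37, 8.43 and 8.81 RPKM (soil N100) at (v + 35) in 2014. It shared the high libraries of the family at both stages. The PAL gene *VIT_08s0040g01710* had r of 0.719 and 0.919 and came 61st in this order. Without the library of the highest sum in each year 5 of the 10 stayed among the first 10. An r of at least 0.8 in both years then held for 20 members and 20 other genes. These r values are descriptions over libraries that share groups, and no p is given.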

How the data were processed

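Total RNA of ground frozen berries was sequenced as poly-A libraries without strand information. Reads were called with CASAVA 1.8.2 and aligned with TopHat2 2.0.10 and Bowtie2 2.1.0 to the 12X grapevine assembly. Uniquely aligned reads were counted with HTSeq 0.5.4p3, in its intersection nonempty mode, on the V1 annotation. The authors deposited RPKM values, 1 table per year, with replicates not pooled, and these values are the only ones used here. Because unique counting drops reads that near-identical members share, RPKM per member is uncertain.

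The values were multiples of what 1 read is worth, and whole reads were recovered for 100% of the 25951 genes of 2013 and 100% of the 26123 genes of 2014 (each value within 0.01 reads of a whole number). These gave depths, read numbers and the alternative test with limma-voom, which called 769 genes up and 870 down from (v + 28) to (v + 35) in the control of 2013 and 69 and 304 in that of 2014. Levels of the years were not tested against each other.

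Genes that averaged 0.5 RPKM or more across the 12 libraries of a year were tested with limma 3.58.1 in R 4.3.3 on log2(RPKM + 0.5), each year alone, with 1 mean per group, moderation with an intensity trend and Benjamini-Hochberg adjustment over all genes tested. Calls needed an adjusted p of 0.05 or less and an LFC of 0.6 or more in either direction. These are nominally the thresholds of the study, whose own test was on counts and called far more genes for N at each stage. Fold changes on log2(RPKM + 0.5) understate the change of low genes. For differences between years the effects were subtracted. The p-values measure the spread between libraries of the same group, pooled over all groups of a year and moderated across genes. The labels do not say which block of vines a library came from. An exact permutation test of 3 against 3 libraries cannot go below 0.1. Sums, correlations and library ratios carry no p.

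The members and the gene lists were chosen with earlier results of these data known. Named with values in every library were the 6 members with the highest mean, every member called, and the tested members with the largest and smallest change in each nitrogen contrast. Flanking genes were named where called, pathway genes all, and genes like the family by the lower of the r values of both years. The division of the chromosome 16 cluster at *VIT_16s0100g01040* the correlations and levels without the highest library, and the counts over members that reach 0.5 RPKM without it were chosen after the values had been seen. Alternatives were other pseudocounts (0.1 and 1), no filter or 2 RPKM, rescaling by median ratios, quantile normalization, no trend, a replicate block, the 6 libraries of a contrast alone, limma-voom, an unadjusted p, no threshold on the fold, and leaving out each library. Tables were handled with Python 3.11.15, pandas 2.3.3 and numpy 2.4.6. None of the 26740 IDs was found in the RefSeq gene table, and no sequences are shown.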

Additional observations from a re-analysis of the deposited data

How the results depend on the processing

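The nitrogen contrasts kept 0 members called in both years under every alternative run, also without any 1 library. For (v + 35) against (v + 28) in the control of 2013, where 4 members were called, the number was 1 with a pseudocount of 1, 1 without a filter, 2 with a mean of at least 2 RPKM, 2 after quantile normalization, 1 by limma-voom, 13 with the 6 libraries alone and 11 at an unadjusted p. Of all 17298 genes, 751 were up-regulated with the 6 libraries alone and 804 at an unadjusted p, against 680 in the main fit. The number of members ranged from 0 to 9 without each library in turn. In soil N100 of 2013, where 0 were called, it was 1 at an unadjusted p and ranged from 0 to 7 without each library. In 2014 an unadjusted p gave 1 member in the control and 2 in soil N100, and the 6 libraries alone gave 1 in soil N100. The cause of these differences was not tested.

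The labels do not say whether replicate numbers pair the samples, and the values did not settle it. Of 18 pairs of same-numbered libraries in each year, 7 in 2013 (r of the deviations -0.437 to 0.355) and 3 in 2014 (-0.435 to 0.713) were above 0.1. With a replicate block the control of 2013 had 2 members called at (v + 35) against (v + 28), and 0 were called in all other contrasts. Over all genes the block raised the calls for soil N100 against control at (v + 28) in 2013 from 5 up and 7 down to 95 and 117. At (v + 35) they went from 1 and 0 to 14 and 8. For (v + 35) against (v + 28) in the control of 2014 it lowered them from 87 and 271 to 40 and 172.

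The log2 ratio of the mean sums for (v + 35) against (v + 28) in the control of 2013 was 0.39 for chromosome 10 alone. Without each library it ranged from -2.53 to 0.42 for soil N100 against control at (v + 35) in 2014 and from -0.44 to 2.57 for (v + 35) against (v + 28) in the control of 2014. The positive value of the first and the negative value of the second came without control replicate 1 of (v + 35). The ratio kept its sign in all other sums and alternatives, except for soil N100 against control at (v + 35) and (v + 35) against (v + 28) in soil N100 of 2013, with ranges without each library of -0.18 to 0.31 and -0.05 to 0.91, and -0.18 for chromosome 10 alone in the latter.

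Some uncalled fold changes near 0 turned. *VIT_16s0100g00810* at (v + 28) in 2013 was at -0.0305 with a pseudocount of 0.1 and -0.0313 by limma-voom (without each library -0.31 to 0.21). *VIT_16s0100g00940* for the mean of both stages in 2013 was at 0.0301 after median ratios and 0.0291 after quantile normalization (-0.198 to 0.0964). Without each library *VIT_10s0042g00860* ranged from -0.25 to 0.76 for the difference between the stages in 2013. In 2014 *VIT_10s0042g00850* ranged from -0.0822 to 0.64 at (v + 28) and from -0.49 to 0.0588 for the mean of both stages. *VIT_16s0100g01040* ranged from -1.9 to 0.13 and *VIT_16s0100g01100* from -0.94 to 0.52 at (v + 35), and *VIT_16s0100g01100* from -0.0339 to 0.699 for the mean of both stages. Reads shared between members limit every single level, and members with few reads, such as the short models of chromosome 10, have the least certain values.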

Other observations

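Control replicate 1 of (v + 35) in 2014 was at least 2 times the next highest library of its year (with 0.5 RPKM added to both) for 160 genes outside the family that reached a mean of 0.5 RPKM without it. The ratio was highest for *VIT_01s0010g02000* (87 RPKM against 2.65 RPKM in the next library, a ratio of 27.7). Among the genes that the study's tables describe were an extracellular dermal glycoprotein, *VIT_07s0104g00180* (91.1 against 5.91 RPKM), an MLP-like protein, *VIT_05s0077g01530* (99.1 against 7.83 RPKM), and a basic chitinase, *VIT_03s0038g03400* (36.4 against 7.4 RPKM), an enzyme class that cleaves chitin. A glutathione S-transferase of the Tau class, *VIT_16s0039g01070* (45.5 against 18.5 RPKM), the sucrose synthase *VIT_11s0016g00470* (119 against 53.2 RPKM) and the NADP-malic enzyme *VIT_04s0008g00180* (64.4 against 29.4 RPKM) were also among them. In 2013 soil N100 replicate 1 of (v + 28), the library with the highest sum of that year, was at least 2 times the next library for 3 genes outside the family and for 0 members.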
